A study of Homo sapiens with 9 samples.

Results

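The probe sets described here are those of the Affymetrix Human Exon 1.0 ST array for which the platform annotation gives no gene symbol. They were chosen by that annotation alone, with no condition on signal, and number 1014733 of the 1384231 probe sets on the array, or 73.3%. A further 354600 probe sets carry exactly 1 symbol and serve as the named comparison, and 14898 carry several. Every array measured total RNA of Flip-In-293, a human cell line descended from the embryonic kidney line HEK293, after infection with a lentivirus that expressed a short hairpin RNA and 10 days of culture. The control group carried a non-silencing (NS) hairpin, the second group a CPSF3 hairpin and the third an RBFOX2 hairpin, with 3 arrays in each. All groups therefore share the infection, and no uninfected cells were analysed here. Titles of the arrays speak of biological replicates and the design text of technical ones. The p-values therefore cover only the variation among the arrays given, which may be technical.

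The exon array was designed from reference transcripts, expressed sequence tags and computer predictions of exons, so that many of its probe sets lie outside well-annotated mRNA. Such probe sets can read RNA from introns, from beyond the 3' ends of genes, from transcripts without an accepted name, or nothing but background. The product of CPSF3 cleaves pre-mRNA at poly(A) sites, and that of RBFOX2 binds RNA and controls which alternative exons are kept. The files give neither sequence nor position for the probe sets, so no sequence is printed and no unnamed probe set is assigned to a gene.

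Probe set numbers offered the only grouping. A block was defined as a maximal series of numbers that rise by 1, which gave 311000 blocks. Neighbouring named probe sets whose numbers differ by 1 carried the same symbol in 99.7% of 236651 pairs, against 71.2% of 3947 pairs whose numbers differ by 2. Blocks without any symbol held 623961 of the unnamed probe sets (61.5%), and blocks with exactly 1 symbol held 349699 (34.5%). The other 41073 stood in blocks with more than 1 symbol or with probe sets of several symbols. As many as 215954 unnamed probe sets (21.3%) were alone in their block. A shared block says only that the numbers are adjacent.

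The labels were checked first on the named probe sets. RBFOX2 was lower in the RBFOX2 hairpin arrays, at -0.58 ± 0.12 (log2 difference from control ± standard error, n = 3 arrays per group), but did not pass the test over all blocks (limma, adjusted p = 0.122). CPSF3 differed by -0.09 ± 0.16 in the arrays labelled CPSF3 knockdown (adjusted p = 0.843), so the transcript does not bear out that label and the group is called the CPSF3 hairpin arrays throughout. All 8 measured HEK293 markers had a level above the median of all probe sets, as did 5 of 7 fibroblast, 2 of 5 blood and 2 of 5 endothelial markers. That median was also reached by 75.2% of all single probe sets with 1 symbol. The upper quartile of all probe sets, 8.36, was exceeded by 6 HEK293, 1 fibroblast, 0 blood and 0 endothelial markers. The fibroblast markers ranged from 4.59 to 8.94, with DCN and LUM below that median of 6.97 and COL1A1, COL1A2 and COL3A1 above it. The blood markers ranged from 4.66 to 7.21 and the endothelial from 5.39 to 7.34.

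Control replicate 3 stood apart from the other controls and lay toward the hairpin arrays. Of the 303 blocks of unnamed probe sets that were lower in the CPSF3 hairpin arrays, its value was nearer to the hairpin mean than to the mean of the other controls in 132 (43.6%). The same was true of control replicate 1 in 0 and of control replicate 2 in 2 of these blocks. Counts of changed probe sets are therefore given with and without this array. The part of depth, RNA quality or a batch in this was not tested, and no batch is named in the labels used here.

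Signal of the unnamed probe sets was lower than that of named probe sets but far from uniformly dim. Their median log2 signal over the 9 arrays was 6.51, with quartiles of 5.05 and 7.78, against 8.35 with quartiles of 6.98 and 9.52 for probe sets with 1 symbol. The median of all probe sets, 6.97, was reached by 40.9% of the unnamed and 75.2% of the named. Unnamed probe sets, 73.3% of the array, made up 5 of the 10 brightest probe sets, 47 of the brightest 100 and 468 of the brightest 1000. A mean of 12 or more was reached by 4521 of 1014733 unnamed and 6406 of 354600 named probe sets.

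Position in a block went with the level. Unnamed probe sets in blocks with 1 symbol had a median of 6.75, those in blocks without symbol 6.35, and those in mixed blocks 6.94. Within blocks without symbol the median was 6.13 for probe sets that stood alone and 6.51 in blocks of 10 or more. The longest such block held 257 probe sets.

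**Figure D1:**
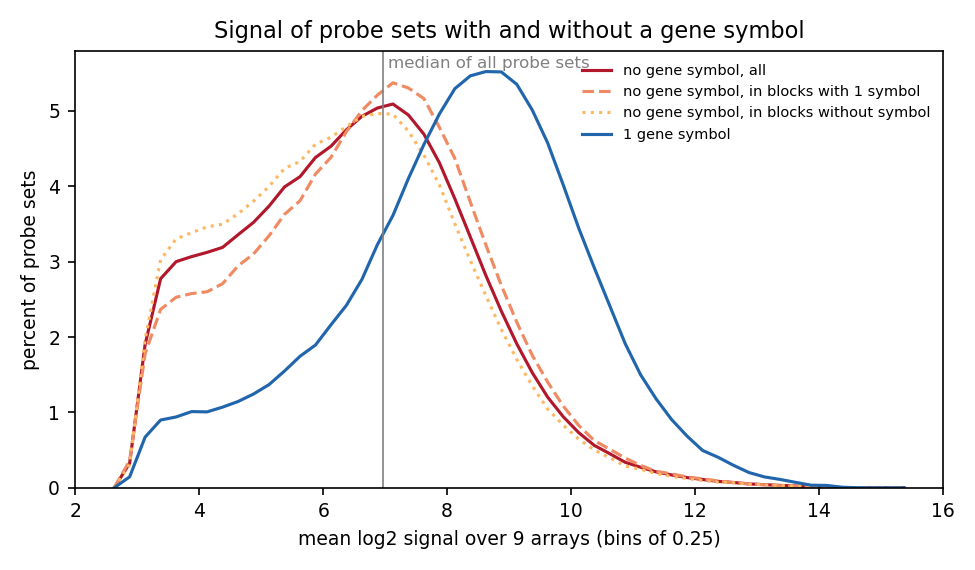
Distribution of the mean log2 signal over 9 arrays (x axis, bins of 0.25) as percent of each kind of probe set (y axis), for probe sets without a gene symbol, all and by kind of block, and for probe sets with 1 symbol. The vertical line is the median of all probe sets, 6.97, and the curve of the named probe sets lies to the right of the others.

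The overall level of the unnamed probe sets did not separate the groups. Per array, their median minus that of the named probe sets was -1.81, -1.70 and -1.86 in the control arrays. It was -1.94, -1.85 and -1.81 in the CPSF3 hairpin arrays and -1.81, -1.83 and -1.87 in the RBFOX2 hairpin arrays. The values of the 3 groups overlapped, and the group means of -1.79 ± 0.08, -1.87 ± 0.07 and -1.84 ± 0.03 (SD, n = 3) lay within the spread of the arrays. Because the deposited values were forced to a common distribution, a shift shared by most probe sets could not have been seen.

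A closer view came from blocks with 1 symbol, where the median of the unnamed probe sets was set against the median of the named probe sets of the same block and array. With at least 3 probe sets of each kind above the signal filter, 12169 blocks could be used. In these the unnamed probe sets lay 0.73 below the named ones in the median block (quartiles -1.41 and -0.14), and at or above them in 2401 blocks (19.7%). On single arrays the median difference was -0.65, -0.52 and -0.78 in controls, -0.83, -0.76 and -0.69 with the CPSF3 hairpin, and -0.78, -0.74 and -0.76 with the RBFOX2 hairpin. Control replicates 1 and 2 were above all 6 hairpin arrays, and control replicate 3 was among them.

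**Figure D2:**
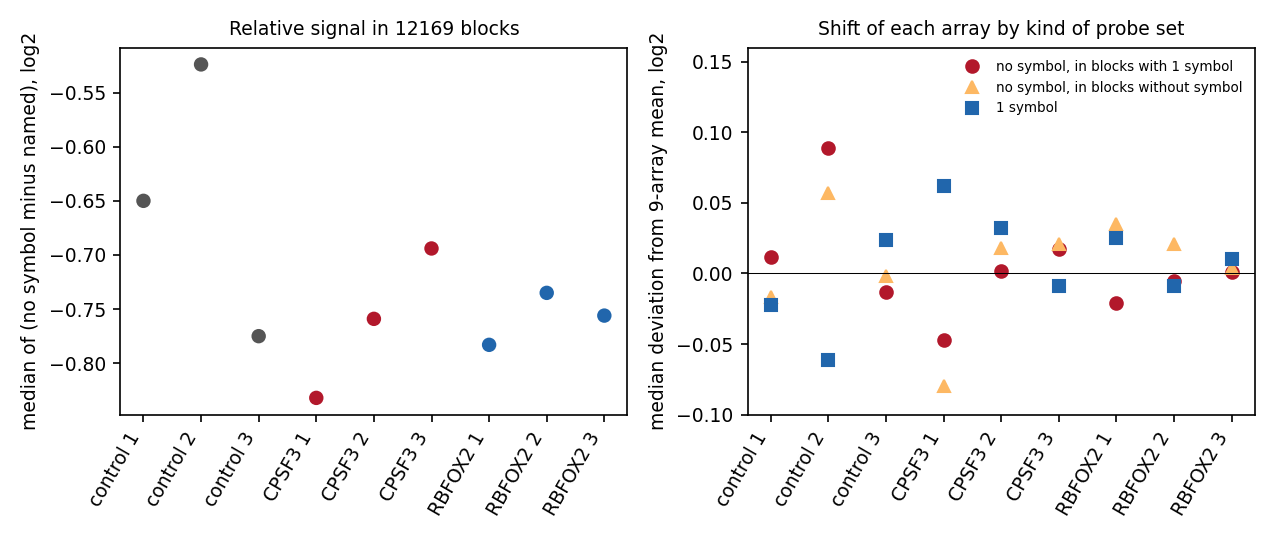
Left, median over 12169 blocks of the log2 difference between unnamed and named probe sets of the same block, for each of the 9 arrays (no error bars: 1 value per array). Right, median deviation of each array from the mean of the 9 arrays, for named probe sets and for unnamed ones by kind of block. Control 3 lies among the hairpin arrays in the left panel, at -0.78.

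At equal signal, unnamed probe sets moved less than named ones on average. Bins of 1 log2 unit of mean signal were used, and the named probe sets were weighted to the bins of the unnamed. The mean absolute change in the CPSF3 hairpin arrays was 0.249 for unnamed and 0.306 for named probe sets, a ratio of 0.812. For the RBFOX2 hairpin it was 0.236 and 0.258, a ratio of 0.915, and between the hairpin groups 0.204 and 0.232, a ratio of 0.877. Large falls were an exception in some bins and not in others. In the bin from 8 to 9, 0.894% of unnamed and 0.364% of named probe sets fell at least 2-fold with the RBFOX2 hairpin. Rises of that size were seen in 0.146% and 0.49%. With the CPSF3 hairpin the falls in this bin were 0.733% and 0.648%, and the rises 0.671% and 2.39%. The spread within groups was close to equal, with a mean residual SD of 0.322 for unnamed and 0.336 for named probe sets at the same signal (ratio 0.958). Without control replicate 3 the ratios of the changes were 0.828 and 0.910. These are descriptions, since probe sets are not replicates.

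All CPSF3 hairpin arrays lay above all control arrays in 5.68% of unnamed probe sets, against 10.9% of named probe sets at the same signal. They lay below all controls in 7.65% and 7.98%. In the bin from 9 to 10, 5.66% of unnamed and 18.3% of named probe sets were above, while 11% and 11.3% were below. With the RBFOX2 hairpin, 4.32% of unnamed and 6.05% of named probe sets lay above all controls, and 5.60% and 5.07% lay below. Between the hairpin groups, 4.12% of unnamed and 5.75% of named probe sets at the same signal were higher in all CPSF3 than in all RBFOX2 hairpin arrays, and 4.68% and 5.78% were lower. With 3 against 3 interchangeable arrays, a share of 0.1 would not overlap, both directions together. The unnamed shares in both directions were 13.3% for CPSF3, 9.91% for RBFOX2 and 8.8% between the hairpin groups. Those of named probe sets at the same signal were 18.9%, 11.1% and 11.5%.

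**Figure D3:**
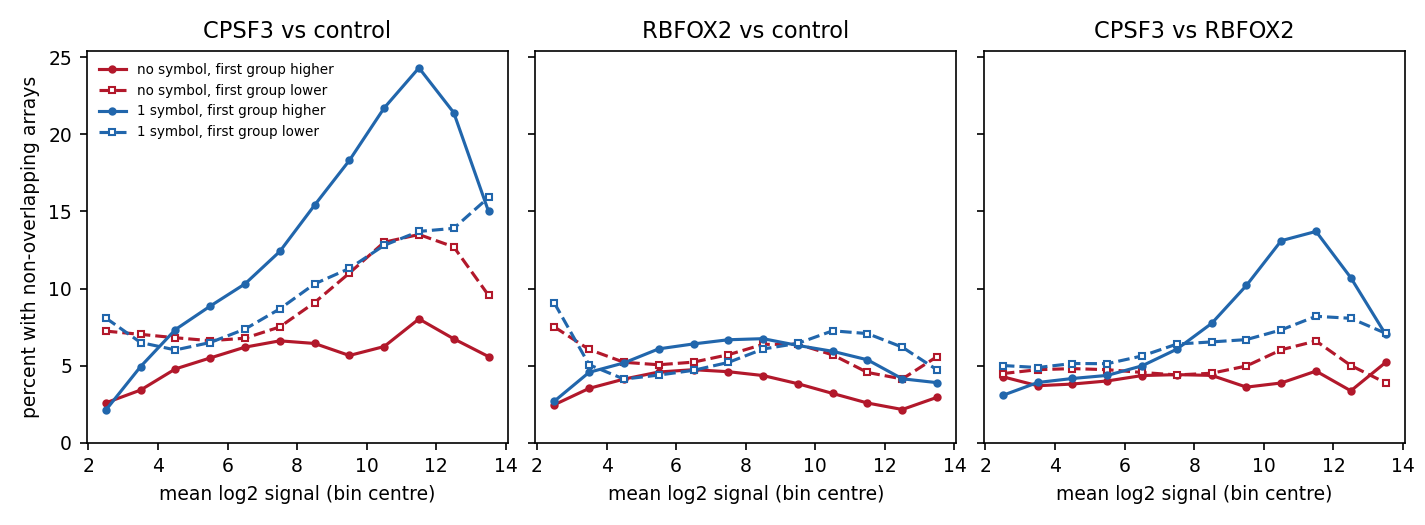
Percent of probe sets whose arrays do not overlap between the 2 groups named above each panel (y axis), by mean log2 signal (x axis, centre of bins of 1), for unnamed and named probe sets and for each direction. In the CPSF3 panel the named, higher curve reaches 24.3% in the bin from 11 to 12, where the unnamed, higher curve is at 8.03%.

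Single probe sets were then tested across the whole table. The 692116 probe sets with a mean at or above 6.97 entered 1 limma fit of the 3 groups, with Benjamini-Hochberg adjustment at 0.05, and 414886 of them (40.9% of all unnamed) had no symbol. With the CPSF3 hairpin, 3477 unnamed probe sets passed, or 0.838%, against a background of 1.6% of all probe sets tested. Of these 1970 were higher and 1507 lower, where 1.01% and 0.588% of all probe sets passed in each direction. Among named probe sets 4903 were higher and 2461 lower. Non-overlapping arrays were seen in 63623 of the unnamed probe sets tested (15.3%), against 20.3% of all. Leaving out single arrays moved the count from 23 (without control replicate 1) to 16263 (without control replicate 3, where 5.85% of all probe sets passed). Without CPSF3 replicate 1, 2 or 3 it was 25, 77 and 35, and without RBFOX2 replicate 2 it was 2003.

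The largest rise among single probe sets was that of ps2441431, in a block of 33 probe sets without symbol. Its log2 signal was 3.38, 4.71 and 7.22 in controls, 9.10, 8.27 and 8.68 with the CPSF3 hairpin, and 6.95, 7.71 and 8.41 with the RBFOX2 hairpin. The controls were widely spread, and of the hairpin arrays only an RBFOX2 array fell within their range. The change was 3.58 ± 0.72 (adjusted p = 0.0367) with the CPSF3 hairpin and 2.59 ± 0.72 (adjusted p = 0.292) with the RBFOX2 hairpin. This probe set passed the signal filter through the hairpin arrays, since its mean in controls was only 5.1. Whether signals that low lie above background was not tested. Of the 33 members of its block, the 16 that passed the same filter were all higher with the CPSF3 hairpin. Among these, 9 had an unadjusted p under 0.05, and their median rose by 1.10 (adjusted p = 0.0163). Members below the filter were not counted.

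A lone probe set, ps3207986, behaved alike, with 6.75, 6.29 and 9.38 in controls, 10.11, 10.09 and 11.20 with the CPSF3 hairpin and 9.18, 9.56 and 10.72 with the RBFOX2 hairpin. Control replicate 3 was close to the hairpin arrays. The CPSF3 change was 2.99 ± 0.67 (adjusted p = 0.0485) and the RBFOX2 change 2.35 (adjusted p = 0.299). Without control replicate 1 the adjusted p-values of ps2441431 and ps3207986 were 0.12 and 0.18, and without control replicate 2 they were 0.134 and 0.17. Both calls were also lost with no signal filter (adjusted p = 0.127 and 0.151).

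The largest falls were those of ps2754685 and ps2754687, in a block of 23 probe sets whose named members carry ANKRD37, an ankyrin repeat gene known to respond to hypoxia. The signal of ps2754685 was 9.92, 9.93 and 8.87 in controls, 4.99, 5.55 and 4.94 with the CPSF3 hairpin and 5.92, 7.59 and 6.69 with the RBFOX2 hairpin. All hairpin arrays were below all controls. Its CPSF3 change was -4.41 ± 0.39 (adjusted p = 0.00462) and its RBFOX2 change -2.84 ± 0.39 (adjusted p = 0.152). The value of ps2754687 fell by 4.20 ± 0.40 (adjusted p = 0.00511). Both passed the filter at 6.97 through the controls, with group means of 5.16 and 5.30 in the CPSF3 hairpin arrays, and whether signals that low lie above background was not tested, so no fold is given. Both kept their calls in all 12 alternatives in which they were tested. In the same block 8 of 10 tested unnamed probe sets were lower, their median by -0.95 (adjusted p = 0.0118) and the named median by -1.12 ± 0.23 (adjusted p = 0.0204).

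Blocks were tested next. A median over at least 3 tested probe sets could be taken for 31723 groups of unnamed probe sets, which held 291442 of the 414886. They were fitted together with 17994 groups of named probe sets. With the CPSF3 hairpin 572 unnamed groups passed (269 higher, 303 lower), or 1.8%, against a background of 4.01% of all groups and 7.9% of the named. Over all groups 2.5% were higher and 1.5% lower. Non-overlapping arrays were seen in 5046 unnamed groups (15.9%), against 21.4% of all groups. The median change over all unnamed groups was -0.038, and over named groups 0.010. Direction went with the kind of block. In blocks without symbol 137 groups were higher and 77 lower, while in blocks with 1 symbol 113 were higher and 203 lower. Without control replicate 3, 780 were higher and 1216 lower (9.63% of all groups passed), and without control replicate 1 only 31 were higher and 28 lower.

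Blocks without symbol that changed had changed named neighbours more often than all tested blocks without symbol. Neighbours here were the nearest tested groups of named probe sets on either side by number, which need not be adjacent. Unnamed neighbours were not counted. A neighbour called in the same direction was found for 24 of 137 higher blocks (17.5%) and for 10.8% of all 16976 tested blocks without symbol. For lower blocks it was 9 of 77 (11.7%) against 4.96%. These shares were not tested.

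The highest rise of a block was that of PRKXP1, a pseudogene of the protein kinase PRKX, whose block holds 34 unnamed probe sets of 38. Their median was 10.51, 10.41 and 11.11 in controls, 12.64, 12.47 and 12.66 with the CPSF3 hairpin, and 11.40, 11.11 and 12.09 with the RBFOX2 hairpin. The CPSF3 hairpin arrays lay above all other arrays. The rise was 1.92 ± 0.23 on the log2 scale (3.77-fold, adjusted p = 0.00244), and all 25 tested unnamed probe sets were higher. The named probe sets of the block rose by 1.87 ± 0.22 (adjusted p = 0.00244). The call held in all 18 alternatives. Pseudogene probe sets can share sequence with the parent gene, and cross-hybridisation was not tested.

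The block ps3213206 to ps3213211 has no symbol at all. Its median was 8.33, 8.21 and 9.11 in controls, 10.30, 10.28 and 10.28 with the CPSF3 hairpin, and 9.20, 9.12 and 9.60 with the RBFOX2 hairpin. The CPSF3 arrays were nearly identical and above every other array. All 5 tested probe sets were higher, the median by 1.74 ± 0.20 (adjusted p = 0.00244), and the call held in all 18 alternatives.

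Other rises were weaker in their support. ps2444779 to ps2444785 rose by 1.82 ± 0.30 (adjusted p = 0.00932) on 3 of 7 probe sets, and with no signal filter, so that all 7 counted, by 0.14 (adjusted p = 0.833). ps3923928 to ps3923930 rose by 1.68 ± 0.29 (adjusted p = 0.0115), from 5.90, 5.77 and 7.25 in controls to 7.89, 8.17 and 7.89. That call was lost with no filter (adjusted p = 0.0536) and without control replicate 1 (adjusted p = 0.0589). Its RBFOX2 hairpin arrays, at 7.54, 7.59 and 7.63, also lay above all controls, and that change of 1.28 did not pass (adjusted p = 0.148). The mean of this block in controls was 6.31, so it passed the filter at 6.97 through the hairpin arrays. Whether signals that low lie above background was not tested.

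The unnamed probe sets in the block of PCF11, a subunit of the cleavage complex that binds RNA polymerase II, had medians of 6.48, 6.46 and 7.96 in controls. They stood at 8.67, 8.55 and 8.52 with the CPSF3 hairpin and at 8.12, 8.26 and 8.75 with the RBFOX2 hairpin. Every hairpin array was above every control, and control replicate 3 came closest. Only 6 of the 20 unnamed probe sets of the block passed the filter at 6.97, and control replicates 1 and 2 lay below it. Whether signals that low lie above background was not tested. The CPSF3 change was 1.61 ± 0.31 (adjusted p = 0.0172), beside 1.57 ± 0.31 (adjusted p = 0.0195) for the named probe sets. The call was lost with no filter (0.95, adjusted p = 0.0812) and without control replicate 1 or 2 or any of the 3 CPSF3 arrays (adjusted p from 0.0519 to 0.0832).

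Among the falls, TXNIP, the thioredoxin-interacting protein that limits glucose uptake, moved in both kinds of probe set. Its 5 tested unnamed probe sets had medians of 9.42, 9.29 and 7.99 in controls, 6.54, 6.88 and 6.30 with the CPSF3 hairpin, and 6.94, 8.26 and 7.31 with the RBFOX2 hairpin. Control replicate 3 lay within the RBFOX2 range and above the CPSF3 range. The fall was -2.33 ± 0.36 (adjusted p = 0.00788) for unnamed and -2.28 ± 0.25 (adjusted p = 0.00244) for named probe sets. With no filter the unnamed fall was 1.97 and narrowly missed the threshold (adjusted p = 0.0501).

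The block of HMGCS1, the cytosolic synthase that supplies cholesterol synthesis, had unnamed medians of 9.47, 9.14 and 7.66 in controls, 6.96, 6.79 and 6.73 with the CPSF3 hairpin and 6.93, 7.51 and 7.19 with the RBFOX2 hairpin. All 6 tested unnamed probe sets were lower, the median by -1.93 ± 0.34 (adjusted p = 0.013). The named change was -0.93 ± 0.26 (adjusted p = 0.0657). Control replicate 3 was just above the highest RBFOX2 array, and without it the unnamed change was -2.47. The call was lost with no filter, without control replicate 2 and without CPSF3 replicate 1 (adjusted p from 0.0536 to 0.0584).

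In the mixed blocks, ps3376273 to ps3376310 fell most, with 6 unnamed probe sets among 38. Controls were at 11.77, 11.93 and 9.99, CPSF3 hairpin arrays at 9.06, 8.67 and 8.69, and RBFOX2 hairpin arrays at 8.88, 10.12 and 9.07. The CPSF3 change was -2.42 ± 0.42 (adjusted p = 0.0125), lost with no filter (-2.05, adjusted p = 0.112) and without control replicate 1 or 2 (adjusted p = 0.0618 and 0.0542). ps3458034 to ps3458056 fell by 1.93 ± 0.33 (adjusted p = 0.0114) in all 6 of its tested unnamed probe sets. That call was lost with no filter, without control replicate 1 and without CPSF3 replicate 1 (adjusted p up to 0.0585). ps2838202 to ps2838220 fell by 1.99 ± 0.25 (adjusted p = 0.00303) on 3 of 10 probe sets, and by 0.54 (adjusted p = 0.265) with no filter.

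**Figure D4:**
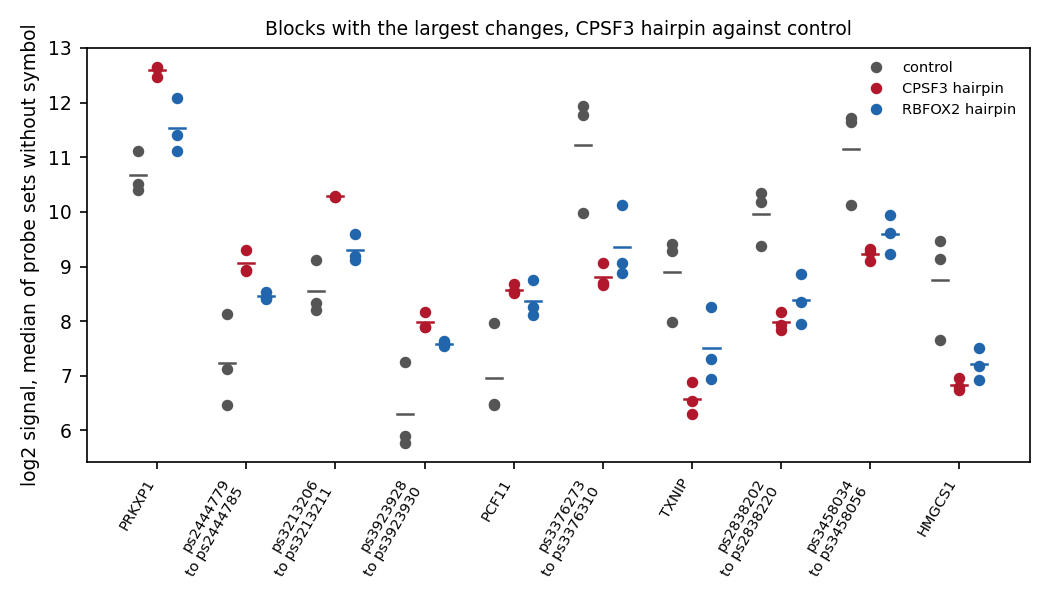
Median log2 signal of the unnamed probe sets (y axis) in the 10 blocks with the largest called changes between the CPSF3 hairpin and control arrays, 5 rises and 5 falls (x axis). Points are single arrays and bars group means (n = 3). In all 10 blocks control replicate 3 is the control point nearest to the CPSF3 points, and in PRKXP1 the CPSF3 points, at 12.47 to 12.66, are above all others.

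Unnamed probe sets followed the named probe sets of their block only in part. Where the named probe sets were called higher with the CPSF3 hairpin (708 of 12169 blocks), their median change was 0.73 and that of the unnamed probe sets 0.08. The unnamed change was positive in 61.6% of these blocks and called higher in 22. Where the named probe sets were called lower (323 blocks), the medians were -0.63 and -0.14, and 28 unnamed groups were called lower. In the 11138 blocks whose named probe sets were not called, 77 unnamed groups were higher and 171 lower. Over all blocks the changes of the kinds of probe set had a Pearson r of 0.259 (n = 12169, both sides share arrays and the RMA fit). In the 61 blocks called higher where the signal of the unnamed probe sets was at or above that of the named ones, the medians were 0.73 and 0.08.

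**Figure D5:**
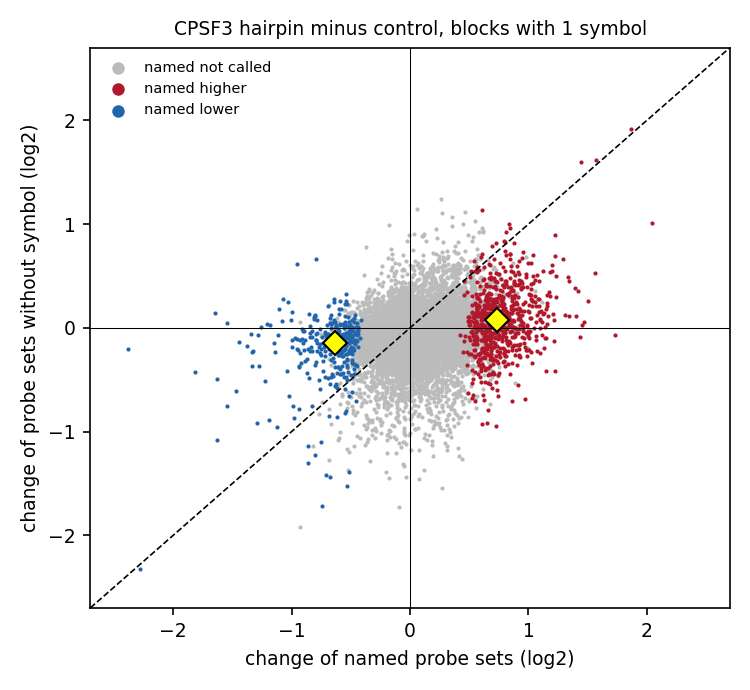
Change between CPSF3 hairpin and control arrays (log2) of unnamed (y axis) against named probe sets (x axis) in 12169 blocks with 1 symbol, coloured by the call on the named probe sets. The dashed line marks equal change and the diamonds group medians, which lie at 0.08 for blocks called higher and at -0.14 for blocks called lower, close to 0 on the y axis.

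The relative signal, unnamed minus named in the same block and array, was tested in its own fit. With the CPSF3 hairpin it changed in 1071 of 12169 blocks, or 8.8%, which is also the background, since every block in this fit is of this kind. It was higher in 189 (1.55%) and lower in 882 (7.25%). The lower blocks had a median change of 0.53 in named and -0.28 in unnamed probe sets. Named probe sets were called in 383 of them, unnamed in 108 and neither in 399. The split depends on the shift of whole arrays: with the median of each array subtracted, an alternative chosen after seeing the data, 422 were higher and 689 lower. The same step gave 32 higher and 95 lower blocks for the RBFOX2 hairpin, and 9 and 6 between the hairpin groups. Without control replicate 3, 2108 were lower and 285 higher (19.7%). Without control replicate 1, 92 were lower and 24 higher.

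In the 5 largest relative rises the named probe sets were called lower and the unnamed ones did not pass, though in KLHL15 and KCTD13 the unnamed changes were 0.62 ± 0.20 (adjusted p = 0.111) and 0.66 ± 0.19 (adjusted p = 0.0662). STC1, a secreted glycoprotein hormone, had relative signals of -1.91, -1.80 and -1.85 in controls, 1.09, -0.19 and 0.06 with the CPSF3 hairpin and -0.41, -1.47 and -1.31 with the RBFOX2 hairpin. The CPSF3 arrays were above all others. The relative rise of 2.17 ± 0.30 (adjusted p = 0.00319) stood beside a named change of -2.38 ± 0.24 and an unnamed change of -0.21 ± 0.17 (adjusted p = 0.617). The unnamed side of STC1 rests on 3 of 18 probe sets, of which 1 was lower. GDF15, a stress-induced cytokine, had a relative rise of 1.59 ± 0.18 (adjusted p = 0.00115), a named change of -1.54 ± 0.15 and an unnamed change of 0.05 ± 0.12. NRN1, the neurite growth factor neuritin, rose by 1.79 ± 0.22 (adjusted p = 0.00115). KLHL15 and KCTD13, both substrate adaptors of CUL3 ubiquitin ligases, rose by 1.58 ± 0.23 and 1.46 ± 0.18, beside named changes of -0.96 ± 0.11 and -0.80 ± 0.14. These 5 calls held in every alternative in which the blocks were tested, 17 to 19 each.

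The largest relative falls were of more than 1 make. In the block of YAE1 the named probe sets rose by 1.73 ± 0.27 and the unnamed changed by -0.07 ± 0.11, for a relative change of -1.80 ± 0.26 (adjusted p = 0.00319). VDAC3, a porin of the outer mitochondrial membrane, had the reverse make, with an unnamed fall of -1.27 ± 0.25 (adjusted p = 0.0195) and a named change of 0.44 ± 0.15 (adjusted p = 0.115). Its relative signal was -1.95, -1.57 and -2.46 in controls, -3.43, -3.71 and -3.97 with the CPSF3 hairpin and -3.21, -2.45 and -3.53 with the RBFOX2 hairpin. Control replicate 3 lay at the upper end of the RBFOX2 arrays and above all CPSF3 arrays. The relative call was lost with the filter at the upper quartile (-0.62, adjusted p = 0.0689). For DDX20, a helicase of the SMN complex, both kinds were called, in opposite directions, at -0.95 ± 0.25 for unnamed (adjusted p = 0.0486) and 0.72 ± 0.15 for named probe sets (adjusted p = 0.0207). The unnamed side of DDX20 rests on 3 of 7 probe sets.

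For KPNA2, an importin alpha, and MED1, a Mediator subunit, the relative change was -1.65 in both (adjusted p = 0.0179 and 0.0116). The unnamed side of MED1 rests on 3 of 7 probe sets. The KPNA2 values were -2.08, -2.06 and -4.07 in controls and from -4.57 to -4.29 with the CPSF3 hairpin, so that 1 control array was close to the hairpin arrays. Without control replicate 3 its change was -2.31. With no signal filter the relative changes of KPNA2, MED1 and DDX20 were -0.44, -0.82 and -0.65 and did not pass (adjusted p = 0.236, 0.191 and 0.401). The calls of KPNA2 and MED1 were also lost without control replicate 1 (adjusted p = 0.103 and 0.071) or 2 (adjusted p = 0.0882 and 0.0614), and that of KPNA2 without CPSF3 replicate 1 or 2 (adjusted p = 0.075 and 0.0541).

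The RBFOX2 hairpin left few calls among the unnamed probe sets. A single probe set without symbol passed, against a background of 0.000433% of all probe sets (0.000144% higher, 0.000289% lower), while 34429 had an unadjusted p under 0.05 (9.11% of all probe sets did). That probe set, ps3864310, stands alone in its block. It was at 5.86, 5.46 and 5.89 in controls, 7.98, 7.59 and 8.18 with the RBFOX2 hairpin and 7.91, 7.78 and 7.44 with the CPSF3 hairpin. All 6 hairpin arrays lay above all controls, control replicate 3 included. The change was 2.18 ± 0.20 (adjusted p = 0.0372) with the RBFOX2 hairpin and 1.97 (adjusted p = 0.00543) with the CPSF3 hairpin. The comparisons share the control arrays. This probe set passed the filter at 6.97 through the hairpin arrays, since its mean in controls was 5.74. Whether signals that low lie above background was not tested. The RBFOX2 call was lost in 10 of 15 alternatives (adjusted p up to 0.456, with no filter).

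Direction at an unadjusted p under 0.05 differed by the kind of block. In blocks with 1 symbol 13171 unnamed probe sets were lower and 4642 higher with the RBFOX2 hairpin, together 11.2% of 158919 tested. Of the named probe sets in such blocks 9644 were lower and 15875 higher, together 10.3% of 246999. In blocks without symbol 6708 were lower and 7381 higher, together 5.98% of 235689, which is near the threshold of 0.05 itself. Of all probe sets tested 9.11% reached this level. Among unnamed groups of probe sets that were lower at this level, control replicate 3 was nearer to the hairpin mean in 62.8% of 2110. Without that array 10407 unnamed probe sets were called (2809 higher, 7598 lower), against a background of 2.73%. The same array left out of the block fit gave 1467 unnamed groups (287 higher, 1180 lower), against 5.35%. These counts rest on 2 control arrays.

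The only unnamed group that passed with all arrays lies in the block of ATP5F1C, the gamma subunit of mitochondrial ATP synthase and a classic gene with an exon regulated by RBFOX proteins (background 0.0161% of all groups, with 0.00402% higher and 0.0121% lower). Its 11 tested unnamed probe sets had medians of 9.27, 9.07 and 8.90 in controls, 7.91, 8.28 and 7.96 with the RBFOX2 hairpin, and 7.87, 8.20 and 8.10 with the CPSF3 hairpin. All hairpin arrays were below all controls. The change was -1.03 ± 0.14 (adjusted p = 0.0465) with the RBFOX2 hairpin and -1.02 (adjusted p = 0.0054) with the CPSF3 hairpin. All 11 probe sets were lower, and the named median changed by 0.14 ± 0.23 (adjusted p = 0.922). The RBFOX2 call was lost in 12 of 18 alternatives, with the change between -1.14 and -0.61.

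The relative signal gave 92 calls with the RBFOX2 hairpin (10 higher, 82 lower), or 0.756% of 12169 blocks (0.0822% higher, 0.674% lower). This share is also the background, since every block in this fit is of this kind. In the 82 lower blocks the median change was -0.80 for unnamed and 0.20 for named probe sets, and neither kind was called in 80. In 47 of them (57.3%) control replicate 3 was nearer to the hairpin mean. Without it 1613 blocks (13.3%) were called, 1508 of them lower.

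CGA, the alpha subunit of the glycoprotein hormones, had the steadiest of these calls. Its relative signal was -2.60, -2.32 and -2.36 in controls, -2.49, -2.42 and -2.33 with the CPSF3 hairpin and -1.20, -1.03 and -1.02 with the RBFOX2 hairpin. The RBFOX2 arrays stood above all others, and control replicate 3 was with its group. The rise of 1.35 ± 0.15 (adjusted p = 0.00229) came with a named change of -1.61 ± 0.13 (adjusted p = 0.000561) and an unnamed change of -0.26 ± 0.13 (adjusted p = 0.5). It held in all 18 alternatives. NRN1, CXCR4, NRGN and CCND2 had relative rises between 0.94 and 1.35, each lost in 7 to 11 alternatives.

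The lower blocks were led by RLF, NCAPG, UBE2A, SLBP and B4GALT6, at -1.47 to -1.38 (adjusted p from 0.0237 to 0.0491). In UBE2A, a ubiquitin-conjugating enzyme, the relative signal was -1.15, -1.31 and -2.07 in controls and -3.06, -2.57 and -3.04 with the RBFOX2 hairpin. All 7 of its tested unnamed probe sets were lower, 6 of them at an unadjusted p under 0.05, and the named change was 0.09 ± 0.14. In SLBP, which binds the stem-loop of histone mRNA, it was -0.47, -0.65 and -1.69 in controls and -2.61, -2.12 and -2.21 with the RBFOX2 hairpin. In both, control replicate 3 was the control nearest to the hairpin arrays. In NCAPG, a condensin subunit, the unnamed change was -1.57 ± 0.31 (adjusted p = 0.115) on 3 of 9 probe sets. In B4GALT6 the named probe sets carried the difference, at 1.21 ± 0.24 (adjusted p = 0.115). These 5 calls were each lost in 7 to 11 alternatives.

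Between the hairpin groups no unnamed probe set passed (limma, background 0% of all probe sets). An unadjusted p under 0.05 was reached by 16563, or 3.99%, a share below that threshold itself and below the 5.77% of all probe sets. A variance trend, array weights and the filter at the upper quartile gave 7, 15 and 5 calls. The smallest adjusted p-values were 0.101 for ps3810539 and ps3469258 and 0.114 for ps3539292, all lower with the CPSF3 hairpin, by -1.65 ± 0.21, -1.33 ± 0.17 and -1.20 ± 0.16. ps3810539 was at 7.04, 7.53 and 7.48 with the CPSF3 hairpin, at 8.82, 9.24 and 8.94 with the RBFOX2 hairpin and at 8.71, 8.54 and 9.24 in controls. The RBFOX2 and control arrays overlapped, with the CPSF3 arrays below both.

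Of the unnamed groups 2 passed in this comparison, against a background of 0.0422% (0.00805% higher, 0.0342% lower), both in blocks without symbol. At an unadjusted p under 0.05 there were 1424 unnamed groups, or 4.49%, and 7.32% of all groups. ps3166421 to ps3166430 was at 8.13, 8.07 and 8.07 with the CPSF3 hairpin, 9.13, 9.28 and 8.99 with the RBFOX2 hairpin and 9.09, 8.76 and 8.89 in controls. The difference was -1.04 ± 0.12 (adjusted p = 0.00692) on 3 of 10 probe sets, and -0.35 (adjusted p = 0.944) with no filter. It was also lost without CPSF3 replicate 2 or 3 or RBFOX2 replicate 2 (adjusted p from 0.0583 to 0.0731). ps3113340 to ps3113345 differed by -0.91 ± 0.14 (adjusted p = 0.0459), lost in 11 of 16 alternatives.

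The relative signal differed between the hairpin groups in 7 of 12169 blocks (5 higher, 2 lower with the CPSF3 hairpin), or 0.0575% (0.0411% higher, 0.0164% lower). Here too this share is also the background. An unadjusted p under 0.05 was reached by 799 blocks (6.57%). In all 7 the named probe sets were called and the unnamed were not. LYPLA1, a depalmitoylating enzyme, differed by 1.54 ± 0.22, MMP2, a gelatinase, by 1.40 ± 0.20, and DPP4, a membrane peptidase, by 1.22 ± 0.20. The unnamed side of MMP2 rests on 3 of 7 probe sets. EDIL3, a matrix ligand of integrins, differed by 1.19 ± 0.18 and ALDH1L2, a mitochondrial folate enzyme, by 1.18 ± 0.19. On the lower side CGA differed by -1.33 ± 0.15 and PTBP2, a splicing repressor of neurons, by -1.09 ± 0.16. Adjusted p-values ran from 0.00267 to 0.032, and each call was lost in 2 to 8 alternatives. The named change of PTBP2 was 1.37 ± 0.13 and the unnamed change 0.28 ± 0.15 (adjusted p = 0.747).

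Blocks were also read by gene lists. The targets came first. RBFOX2 had 20 tested unnamed probe sets in its block, whose median changed by -0.42 ± 0.15 with the RBFOX2 hairpin (adjusted p = 0.313) and by -0.31 ± 0.15 with the CPSF3 hairpin (adjusted p = 0.324). The block of CPSF3 held too few unnamed probe sets above the filter to be measured.

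Of 22 factors of mRNA 3' end formation, 20 were measured. With the CPSF3 hairpin only PCF11 had an unnamed change that passed, a rise, where 2.5% of all groups were higher. The median over the list was 0.05, against -0.04 over all unnamed groups. The relative signal was lower in 6, CSTF3, PAPOLA, PAPOLG, RBBP6, XRN2 and FIP1L1, and higher in PABPN1, where 7.25% and 1.55% of all blocks were lower and higher. Without control replicate 1 it was lower in 1 and higher in 0, where 92 of all blocks were lower and 24 higher. Without control replicate 3 it was lower in 9, where 19.7% of all blocks passed. PAPOLG, a poly(A) polymerase, led these with -1.33 ± 0.24 (adjusted p = 0.00665), made of a named change of 0.73 ± 0.16 and an unnamed change of -0.60 ± 0.20 (adjusted p = 0.114). With the RBFOX2 hairpin 0 of the 20 passed in either measure. The lowest unadjusted p there was that of PPP1CB, a catalytic subunit of protein phosphatase 1 (-0.87 ± 0.19, adjusted p = 0.144).

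Of 14 groups of SR and TRA2 splicing factors, SRSF3 was higher in 1 of its blocks, by 0.54 ± 0.14 (adjusted p = 0.0445), where 2.5% of all groups were higher. None was lower, and the list median was -0.38. Without control replicate 3, 7 of the 14 were lower and 1 higher, where 9.63% of all groups passed. A second SRSF3 block changed by 0.10 ± 0.20. SRSF7 and TRA2A had unnamed changes of -1.09 ± 0.36 and -0.97 ± 0.32 (adjusted p = 0.111 and 0.114). The unnamed probe sets of SRSF7 were at 9.64, 9.32 and 7.69 in controls, with CPSF3 hairpin arrays on both sides of the last, and the relative change was -1.28 (adjusted p = 0.0254). With the RBFOX2 hairpin SRSF7 had the lowest p of the list (-1.20 ± 0.36, adjusted p = 0.229). In SRSF7 and TRA2A control replicate 3 was among the hairpin arrays.

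Among 8 groups of snoRNA host genes no unnamed change passed, and the list median was -0.06 with the CPSF3 hairpin. HSPA8, a chaperone gene, had 2 blocks that went opposite ways. The larger was at 10.86, 10.81 and 8.48 in controls and at 8.74, 8.29 and 8.47 with the CPSF3 hairpin (-1.55 ± 0.48, adjusted p = 0.09). Control replicate 3 was again among the hairpin arrays. The other changed by 0.65 ± 0.17 (adjusted p = 0.0523), from 8.39, 8.30 and 8.12 to 8.88, 8.87 and 9.02, with control replicate 3 the farthest from the CPSF3 arrays. With the RBFOX2 hairpin the changes were -1.62 and 0.20 (adjusted p = 0.223 and 0.784).

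Genes of the ATF4 and stress list fell in 5 of 22 groups and rose in none with the CPSF3 hairpin, with a list median of -0.28, where 1.5% of all groups were lower. Without control replicate 3 it was 9 of 22, where 9.63% of all groups passed. Without control replicate 1 it was 1, where 28 of all unnamed groups were lower. TXNIP, ATF3, ASNS, ARRDC4 and SLC7A11 were the 5. ATF3, a stress transcription factor, changed by -1.08 ± 0.25 (adjusted p = 0.0316) and ASNS, asparagine synthetase, by -0.66 ± 0.17 (adjusted p = 0.0489), with named changes of -1.63 and -1.02. In SLC7A11, the cystine transporter, 5 unnamed probe sets of 1 block fell by 0.94 ± 0.17 (adjusted p = 0.0128), from 8.94, 8.84 and 8.95 to 8.40, 7.66 and 7.86, while the named median changed by 0.20 ± 0.21. Control replicate 3 was with its group there. The other SLC7A11 block changed by -0.35 ± 0.14 (adjusted p = 0.192). DDIT4, DDIT3 and GDF15 had named falls from -1.82 to -1.34 and unnamed changes from -0.43 to 0.05 that did not pass. With the RBFOX2 hairpin 0 of the 22 groups passed, and ATF3 had the lowest p (-1.16 ± 0.25, adjusted p = 0.138).

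Of 27 groups in genes with known RBFOX exons, only SLK, a Ste20-like kinase, passed with the CPSF3 hairpin, where 1.5% of all groups were lower. None passed with the RBFOX2 hairpin. With the CPSF3 hairpin the relative signal was lower in 5 of 27 and higher in 1, where 7.25% and 1.55% of all blocks were. Without control replicate 1 it was lower in 1 and higher in 0, where 92 of all blocks were lower and 24 higher. Without control replicate 3 it was lower in 8 and higher in 1, where 19.7% of all blocks passed. The 10 unnamed probe sets of SLK were at 8.62, 8.62 and 8.29 in controls, 7.80, 7.67 and 7.64 with the CPSF3 hairpin and 7.84, 8.03 and 7.84 with the RBFOX2 hairpin. The changes were -0.81 ± 0.13 (adjusted p = 0.00793) and -0.61 ± 0.13 (adjusted p = 0.126), with all 6 hairpin arrays below all controls. Among 41 groups of DNA replication genes no unnamed change passed with either hairpin. POLA1, the catalytic subunit of DNA polymerase alpha, came nearest with the CPSF3 hairpin (0.53 ± 0.16, adjusted p = 0.0755), and RFC1, the large subunit of the clamp loader, with the RBFOX2 hairpin (-0.71 ± 0.21, adjusted p = 0.223). The relative signal was lower in 8 of 38 with the CPSF3 hairpin, where 7.25% of all blocks were lower. Without control replicate 1 it was lower in 1 of 37, where 92 of all blocks were lower. Without control replicate 3 it was lower in 12 of 37, where 2108 of all 12171 blocks were lower. With all arrays the lowest in the list was that of POLE2, a subunit of DNA polymerase epsilon (-1.37 ± 0.21, adjusted p = 0.00324). Its named change was 1.03 ± 0.18 and its unnamed change -0.34 ± 0.15 (adjusted p = 0.263).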

How the data were processed

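RNA of each culture was hybridised as labelled cDNA, per the labels' protocols. The deposited log2 values, 1 per probe set and array, were made with Affymetrix Power Tools and RMA (hg18), per the submitters' processing notes, which give no versions or filters. RMA equalises the arrays. Probe sets were joined to the platform annotation and symbols updated through RefSeq. The number of arrays limits the precision.

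Fits used R 4.3.3 and limma 3.58.1 (lmFit, eBayes) on all 3 groups with no block, 2-sided, adjusted over every feature. Scripts were tested on simulated data. An exact permutation test of 3 against 3 arrays cannot go below 0.1. Named items are, per comparison, the 2 largest called rises and falls of probe sets and the 5 largest of blocks and relative signals, with non-overlapping arrays, or the 3 smallest p where none passed; and per gene list up to 2 highest and 2 lowest called, or the smallest p. Other list members were chosen after their values were seen. Members and lists were chosen with earlier results of these data known.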

Additional observations from a re-analysis of the deposited data

How the results depend on the processing

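Counts of calls moved far between alternatives. None of the items picked per comparison changed sign where it was tested. Their arrays did not overlap between the groups, so leaving out 1 array could hardly reverse them. The split of calls by direction did move. For CPSF3, blocks went from 269 higher and 303 lower to 338 and 288 with runs in place of blocks. Probe sets went from 1970 higher and 1507 lower to 6156 and 7465 with array weights. The causes were not tested. Counts below are of unnamed probe sets, blocks and relative signals. With no filter, more features are tested; CPSF3 against control gave 23, 60 and 377, RBFOX2 against control 0, 0 and 4, and the hairpin groups 0 blocks and 0 relative signals. With the filter at the upper quartile RBFOX2 gave 3 probe sets and 16 relative signals, and the hairpin groups 5, 1 and 3. Centred arrays gave 1 block between the hairpin groups, and relative signals centred on each array 15. A variance trend with robust estimation gave 6123 probe sets for CPSF3, 7 for RBFOX2 and 7 between the hairpin groups, and 20 relative signals for RBFOX2. Array weights gave 13621, 1974 and 3262 for CPSF3, 2, 322 and 1630 for RBFOX2, and 15, 14 and 22 between the hairpin groups. Means in place of medians gave 959 blocks and 1843 relative signals for CPSF3, 3 and 2 for RBFOX2, and 11 relative signals between the hairpin groups. At least 5 probe sets gave 3 blocks and 148 relative signals for RBFOX2 and 0 blocks between the hairpin groups. Runs of unnamed probe sets in place of blocks gave 0 blocks for RBFOX2 and 1 between the hairpin groups. Quantile normalisation kept every count within 1.5 times.

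Leaving out 1 array at a time gave 23 to 16263 probe sets, 59 to 1996 blocks and 116 to 2393 relative signals for CPSF3. It gave 0 to 10407, 0 to 1467 and 1 to 1613 for RBFOX2, and 0 to 0, 0 to 7 and 0 to 17 between the hairpin groups. The highest counts with RBFOX2 and CPSF3 came without control replicate 3. The ratios of change at matched signal ranged over 0.8162 to 0.8581, 0.8719 to 0.9723 and 0.8745 to 0.9073.

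Same-numbered arrays had correlations from -0.147 to 0.307 over 9 pairs, not all above 0.1, so the numbers are not taken to pair the arrays. For 3 of 9 arrays the single best partner had the same number, and for 0 of 9 the best partner in both other groups. The replicate block gave 0 probe sets and 196 relative signals for RBFOX2, and 1 block and 4 relative signals between the hairpin groups. Among the named items ps3864310 (adjusted p = 0.169), ATP5F1C (0.064), ps3113340 to ps3113345 (0.0519) and the relative signals of DPP4, EDIL3 and ALDH1L2 between the hairpin groups (0.0612 each) were lost under it.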
